A study of Mus musculus with 12 samples.

Results

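The genes described here are 48 genes of DNA replication and deoxynucleotide synthesis, named as a list by function and found in the count table by gene identifier. All 48 of them were among the 32688 genes counted and among the 18066 genes that passed the filter on low counts, so no listed gene is missing from the tests. The genes fall into 7 roles: 11 genes of origin licensing, 8 of helicase activation, 9 DNA polymerase and primase subunits, 7 genes of the sliding clamp, its loader and the single-strand binding protein RPA, 4 of Okazaki fragment joining and the fork, 6 of nucleotide supply and uracil removal, and 3 of chromatin assembly. RNA was sequenced from RAW264.7 cells, a mouse macrophage line, in which CRISPR-Cas9 had removed the transcription factors TFEB and TFE3 (double knockout, DKO), and from a line labelled Null, named WT in the text of the study. Each line was kept as control or exposed for 8 h to 100 µM etoposide, a poison of topoisomerase II that leaves breaks in DNA, and there were 3 libraries in each of the 4 groups. Both lines grew in the same high-glucose medium with serum, and each is a single line, so the libraries do not measure the spread between independently made knockouts. The labels call the control cells untreated and the methods name DMSO, which could not be settled.

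DNA replication starts when the origin recognition complex, CDC6 and CDT1 load the MCM helicase on DNA in G1, and later factors, among them CDC45, the GINS complex, TICRR and MCM10, turn it into a moving fork. Polymerase alpha-primase lays down primers, polymerases epsilon and delta extend them on the sliding clamp PCNA, and FEN1 and LIG1 join the fragments of the lagging strand. Deoxynucleotides come from ribonucleotide reductase, thymidylate synthase and salvage kinases, and the transcripts of most of these genes are known to rise as proliferating cells enter S phase under the control of E2F factors.

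Totals ran from 29837255 to 61809316 counts per library, and the members held at least 1.22 CPM (counts divided by TMM-scaled library size) in every library. The 8 macrophage markers summed to 4832 to 5132 CPM in Null control libraries and 4313 to 4546 CPM in those with etoposide, to 4193 to 4346 CPM in DKO control libraries and 4585 to 4775 CPM in those with etoposide, and all 8 were above 0 in every library. As the titles of the DKO etoposide libraries hold the word MEFs (mouse embryonic fibroblasts) while their other labels say RAW264.7, 8 fibroblast markers were summed as well, and they gave 1.01 to 1.20 CPM in these libraries, 0.152 to 0.263 CPM in DKO control, 0.646 to 0.928 CPM in Null control and 1.91 to 2.04 CPM in Null libraries with the drug. Most of the sum in the DKO etoposide libraries was Pdgfrb (0.787 to 0.963 CPM), which was called higher with etoposide in DKO cells (1.83), as was Pdgfra (1.42), while Lum was at 0 and Col1a1 at most 0.0525 CPM there. Single macrophage markers moved in both directions with etoposide. In DKO cells Adgre1, Spi1, Itgam (1.26) and Lyz2 were called higher and Csf1r, Ptprc and Fcgr1 (-2.49, interaction -1.59) lower, and in Null cells Itgam was called higher and Csf1r (-1.19), Ptprc, Spi1 and Fcgr1 lower. Over all 12 libraries together, up to 63% of the counts of Itgam could come from Gm49368 on the same strand. Such shares given below are also over all libraries and can be larger in a single group. The part of these markers in the members' values was not tested. In these bulk libraries, fewer cells in S phase and less RNA per cell cannot be told apart.

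Every member fell with etoposide in DKO cells, most fell in Null cells as well, and none was called higher in either line. In Null cells 38 of 48 members were called lower and 0 higher at an adjusted p under 0.05 (limma-trend with Benjamini-Hochberg adjustment over all genes tested), beside 18.7% of all genes called lower and 20.9% called higher. In DKO cells 48 of 48 were lower, beside 19.1% of all genes lower and 20.2% higher. The median log2 fold change of the members was -0.51 in Null cells, with a range from -2.34 to 0.09, and -1.49 in DKO cells, with a range from -3.29 to -0.44. The value of 0.09 was that of Rfc5, a clamp loader subunit, whose Null etoposide libraries (86.5, 89.1 and 86.96 CPM) lay above its Null control libraries (80.9, 81.97 and 84.4 CPM) without passing the test. The median over all genes tested was 0.03 in both lines. The share of its control level that a member kept ran from 19.3% (Ung) to 106% (Rfc5) in Null cells and from 10.1% (Tk1) to 73.4% (Rfc2) in DKO cells. Summed over the members, the level went from 4863, 5099 and 5112 CPM to 3280.2, 3442 and 3263 CPM in Null libraries, and from 4254, 4107 and 4017 CPM to 1552, 1590.2 and 1529 CPM in DKO libraries. The sums of the 4 groups did not overlap. Mitochondrial genes took 14.1% to 18.3% of the counts in Null control and 19.4% to 21.7% in Null etoposide libraries, against 16.6% to 17.5% and 17.00% to 18.1% in those of the DKO line, and the part of this share in the members' values was not tested.

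The stronger fall in DKO cells was tested by the interaction, the log2 fold change with etoposide in DKO cells minus the one in Null cells. It was called lower for 36 of 48 members and higher for 0, beside 6.39% of all genes called lower and 3.07% called higher. All 48 members had a negative interaction by sign, with a median of -0.85 and values from -2.48 (Rrm2) to -0.05 (Prim2), against a median of -0.01 over all genes tested. With the calls of the single lines set beside it, 31 members were lower in both lines with a lower interaction, and Orc1, Gins2, Mcm8, Rfc5 and Rpa2 were called lower in DKO cells alone with a lower interaction. Another 7 members (Mcm2, Gins3, Pola1, Prim2, Pold2, Pold3 and Ung) were lower in both lines without a called interaction, and Gins4, Rfc2, Rfc3, Fen1 and Dna2 were called in DKO cells alone, again without a called interaction. For these 5 the difference between the lines was therefore not shown by the test of the difference.

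**Figure D1:**
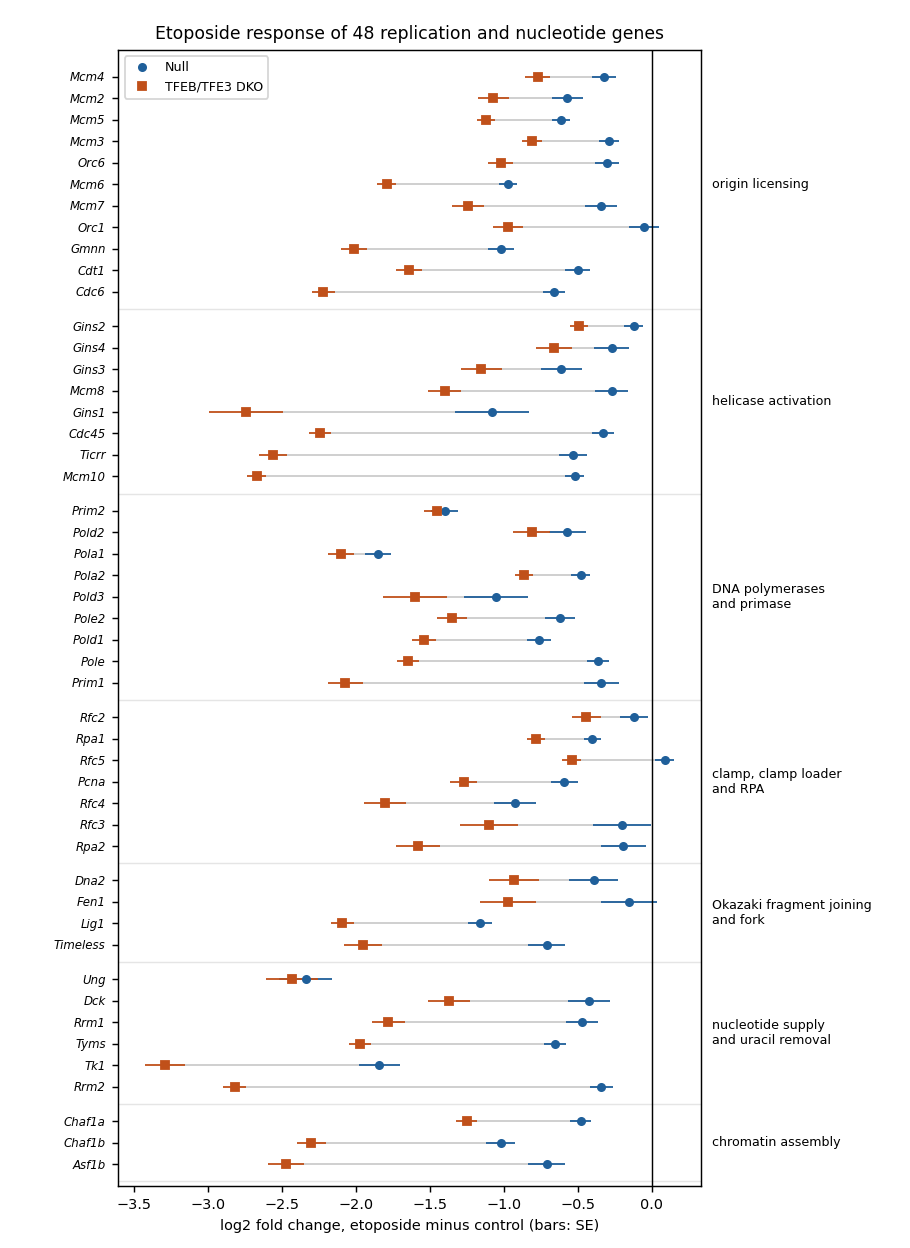
Etoposide response of each of the 48 members as log2 fold change (etoposide minus control, horizontal axis), with Null cells as circles, DKO cells as squares, bars for the standard error of the fit, and genes grouped by role. Each DKO value lies left of its Null value, from a gap of 2.48 for Rrm2 to one of 0.05 for Prim2.

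The regions before the transcription starts were read because the members moved together. RefSeq promoter windows (GRCm38.p6, 250 bases before to 50 after a start) were matched for 40 members, in 45 windows, and were not matched for Gmnn, Mcm4, Gins1, Gins2, Gins4, Prim2, Pole and Rfc2. An E2F site, searched on both strands as TTTGGCGC, TTTCCCGC, TTTGCCGC or TTTCGCGC, lay in 33.3% of the member windows and in 2.26% of all 32851 windows. The pentamer CCAAT lay in 53.3% and 37.4%, the cell cycle homology region letters TTTGAA in 15.6% and 17.9%, and CACGTG, the core letters of the E-box that TFEB and TFE3 are known to bind, in 15.6% and 7.15%. The member windows were also richer in G and C, with a median of 61.3% against 52.7%, so these shares are not at a matched base composition. The following stretches of 70 bases, all before the start and written along the gene's strand, hold such letters in capitals, and they are shown for the helicase ring subunits with the largest genotype difference in control cells (Mcm5, Mcm6), the members with the largest interactions (Mcm10, Rrm2), a member that fell deeply in both lines (Pola1) and one with the E-box letters (Tyms).
Mcm5, E2F, chr8:75109327-75109396, plus strand: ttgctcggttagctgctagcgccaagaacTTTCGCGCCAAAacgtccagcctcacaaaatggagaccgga
Mcm6, E2F, chr1:128359775-128359844, minus strand: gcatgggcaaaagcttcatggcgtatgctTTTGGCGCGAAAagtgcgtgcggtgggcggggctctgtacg
Pola1, E2F, chrX:93632255-93632324, minus strand: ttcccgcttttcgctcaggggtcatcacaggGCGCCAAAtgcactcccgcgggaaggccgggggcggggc
Mcm10, CCAAT, chr2:5012853-5012922, minus strand: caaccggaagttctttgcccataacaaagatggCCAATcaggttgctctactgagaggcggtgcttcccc
Rrm2, CCAAT, chr12:24708171-24708240, plus strand: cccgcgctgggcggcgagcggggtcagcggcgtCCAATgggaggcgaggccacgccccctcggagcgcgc
Tyms, E-box, chr5:30073649-30073718, minus strand: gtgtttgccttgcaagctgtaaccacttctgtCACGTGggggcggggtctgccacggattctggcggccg

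In Mcm5 and Mcm6 a pair of E2F matches on opposite strands overlapped, starting 153 and 149 bases before the start in Mcm5 and 110 and 106 bases in Mcm6. The 15 members with an E2F match had a median interaction of -0.82 and the other 25 with a window one of -0.96, and the 7 with CACGTG had -0.82 against -0.90 for the 33 without. The median response in DKO cells was -1.40 with an E2F match and -1.78 without, and -1.25 with CACGTG and -1.60 without. In Null cells it was -0.61 against -0.48 and -0.48 against -0.57. The ranges overlapped in each pair, and whether the response differs with a match was not tested. A match here describes letters in a window and not a bound factor.

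Of the origin licensing genes, 10 of 11 were lower in Null cells and 11 of 11 in DKO cells, with medians of -0.50 and -1.12, and 10 had a lower interaction. Cdc6 (ENSMUSG00000017499.15, chromosome 11, 98907801 to 98923940, GRCm38), which brings the helicase to origins, was at 69.6, 78.1 and 76.6 CPM in Null control and 46.7, 48.7 and 46.3 CPM in Null etoposide libraries. The DKO line held 70.4, 72.5 and 66.4 CPM in control and 14.9, 16.1 and 13.8 CPM in etoposide libraries. The control libraries of the lines overlapped, whereas the DKO etoposide libraries lay far below all others. Cdc6 fell by 0.66 on the log2 scale in Null and by 2.22 in DKO cells, and its interaction was -1.56 (SE 0.109, limma-trend, adjusted p 1.05e-06).

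Cdt1, the partner of CDC6 in loading, was at 127, 118 and 109 CPM in Null control and 79.97, 86.9 and 81.8 CPM in Null etoposide libraries. DKO cells gave 109, 101 and 93.7 CPM in control and 34.9, 32.3 and 29.9 CPM in etoposide libraries. The control ranges met at 109 CPM, and the interaction was -1.14 (SE 0.120, limma-trend, adjusted p 5.12e-05). Gmnn encodes geminin, the inhibitor of CDT1. It was at 31.1, 32.2 and 32.2 CPM in Null control and 14.6, 17.1 and 15.4 CPM in Null etoposide libraries, and at 31.3, 36.1 and 34.6 CPM in DKO control and 8.67, 7.77 and 8.65 CPM in DKO etoposide libraries. Loader and inhibitor thus fell together, with the DKO etoposide libraries lowest for both, and the interaction of Gmnn was -0.997 (SE 0.124, limma-trend, adjusted p 2.00e-04).

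The 6 subunits of the MCM helicase ring, Mcm2 to Mcm7, kept 50.97% to 81.8% of their control level in Null and 28.9% to 58.5% in DKO cells, with all 6 lower in each line and interactions from -0.90 (Mcm7) to -0.46 (Mcm4). The interaction of Mcm4 was lost without DKO control replicate 2, any 1 of the Null etoposide replicates, or DKO etoposide replicate 1 or 3 (-0.49 to -0.40), and the call of Mcm7 in Null cells (-0.34) was lost without Null control replicate 2 or 3 or Null etoposide replicate 1 or 3 (-0.36 to -0.26). Mcm5 was the member with the highest level per kilobase of exon, 111 CPM per kilobase in Null control cells, ahead of Mcm6 (86.9), Pcna (86.8), Mcm3 (67.1) and Mcm4 (48.3), while Mcm7 (40.6) and Mcm2 (28.9) were lower. Mcm5 was at 428, 454 and 443 CPM in Null control, 276, 304 and 290.5 CPM in Null etoposide libraries, and at 196, 199.8 and 200.4 CPM in DKO control and 90.7, 90.3 and 92.5 CPM in DKO etoposide libraries. The 4 groups did not overlap, and DKO control libraries already lay below Null etoposide libraries. Mcm5 differed by -1.15 between the lines in control cells (SE 0.0614, limma-trend, adjusted p 4.18e-08), more than any other member, and its interaction was -0.52 (SE 0.0868, adjusted p 0.00208). Mcm6 showed the next ring difference in control cells, with 406 ± 20.5 CPM in the Null line and 260.2 ± 4.11 CPM in the DKO line (SD, n = 3; -0.64, limma-trend, adjusted p 1.12e-05), and fell to 207 ± 8.41 and 75.1 ± 1.57 CPM with etoposide (SD, n = 3). Mcm4, by contrast, was at 174 ± 14.04 and 164 ± 12.3 CPM in the control cells of the lines (SD, n = 3; -0.08, adjusted p 0.577).

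Of the origin recognition genes, Orc1 did not pass the test in Null cells (-0.05, adjusted p 0.723) and fell to 51.1% of its control level in DKO cells. Orc6 kept 81.1% in Null and 49.4% in DKO cells. Up to 9.13% of the counts of Orc6 could come from Vps35, which overlaps it on the opposite strand, since strand was not shown to be used in the counting.

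Of the helicase activation genes 6 of 8 had a lower interaction, and the median interaction was -1.40. Mcm10, a factor that helps start unwinding, was at 85.99, 86.2 and 85.6 CPM in Null control and 57.8, 63.1 and 58.4 CPM in Null etoposide libraries. DKO cells held 68.99, 71.7 and 71.7 CPM in control and 10.8, 11.5 and 10.9 CPM in etoposide libraries. None of the 4 groups overlapped, and 15.7% of the control level was left in DKO against 69.5% in Null cells (interaction -2.14, SE 0.0886, limma-trend, adjusted p 1.11e-08). Ticrr, which joins the helicase to its activating kinase signal, was at 59.5, 55.9 and 52.2 CPM in Null control and 39.4, 39.2 and 37.1 CPM in Null etoposide libraries. The DKO libraries gave 42.1, 49.3 and 50.4 CPM in control and 7.34, 7.87 and 8.71 CPM with etoposide. These groups did not overlap either, although the control difference between the lines (-0.24) did not pass (adjusted p 0.0935), and the interaction was -2.02 (SE 0.131, adjusted p 5.63e-07).

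Cdc45, a subunit of the active helicase, was at 71.8, 76.8 and 79.3 CPM in Null control and 61.99, 60.8 and 58.98 CPM in Null etoposide libraries. In DKO cells the values were 75.4, 65.6 and 67.1 CPM in control and 14.8, 14.97 and 13.99 CPM after etoposide. Null cells kept 79.7% of their control level and DKO cells 21.01%, and the interaction was -1.92 (SE 0.103, limma-trend, adjusted p 1.06e-07). Of the 4 GINS subunits, which act as one complex with CDC45, Gins1 kept 14.04% of its control level in DKO cells, Gins3 44.6%, Gins4 62.7% and Gins2 71.1%. Of these, Gins1 and Gins2 had a called interaction, at -1.67 and -0.37, and that of Gins2 was lost without DKO control replicate 2, any 1 of the Null etoposide replicates, or DKO etoposide replicate 1 or 2 (-0.39 to -0.33). Gins1 was the least even member between control libraries, with a coefficient of variation of 30.8% in Null cells and the highest of all members in DKO cells as well, and up to 39.4% of the counts of Gins2 could come from Gse1 on the opposite strand. Mcm8, a helicase subunit of a separate complex, had the lowest level per kilobase of all members, 5.49 CPM per kilobase in Null control cells. Its libraries were at 17.9, 21.2 and 22.2 CPM in Null control, 17.2, 16.9 and 16.5 CPM in Null etoposide libraries, and at 19.2, 16.6 and 16.3 CPM in DKO control and 6.36, 7.43 and 5.82 CPM in DKO etoposide cells. The DKO etoposide libraries alone stood apart, and the interaction was -1.14 (SE 0.161, adjusted p 5.89e-04).

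**Figure D2:**
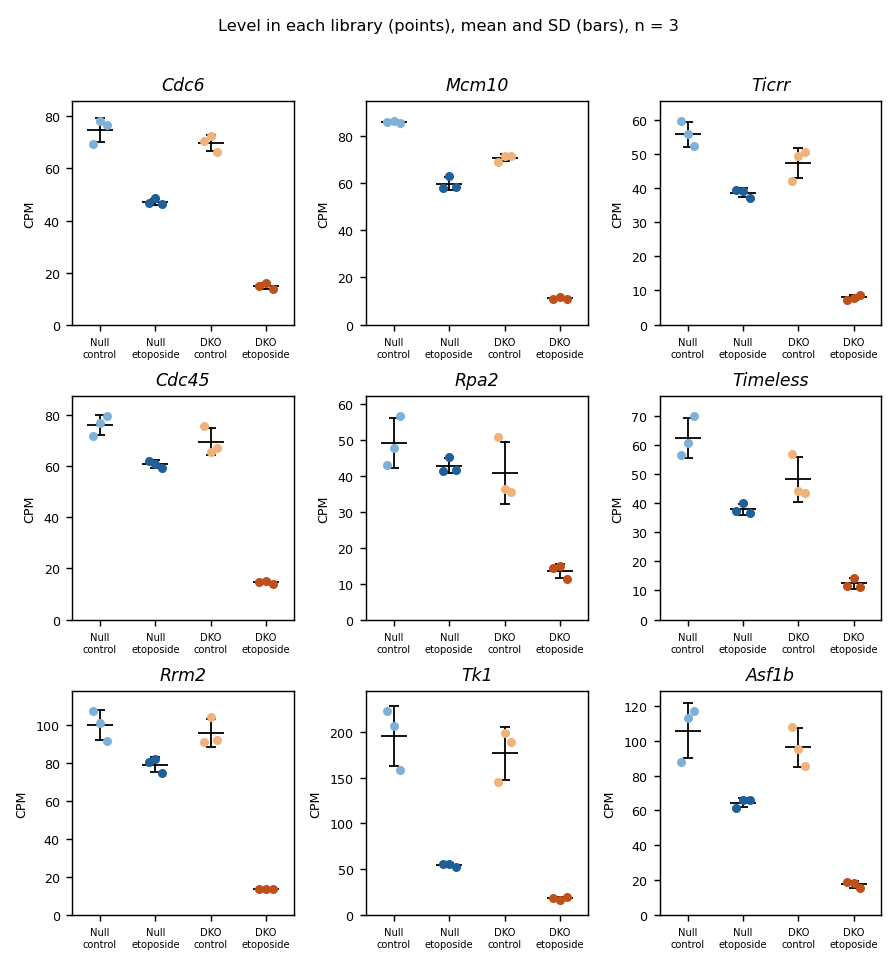
Level of 9 members in CPM (vertical axis, from 0) in each library of the 4 groups, with points for single libraries and bars for the mean and SD of 3 libraries. In every panel the DKO etoposide libraries lie below all others, for Rrm2 at 13.4 to 13.6 CPM against 74.4 CPM or more elsewhere.

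All 9 DNA polymerase and primase genes were lower in both lines, with medians of -0.62 in Null and -1.54 in DKO cells, but the interaction divided them, with 5 called lower. Prim1, the catalytic subunit of primase, was at 54.96, 62.3 and 70.6 CPM in Null control and 51.1, 47.8 and 48.9 CPM in Null etoposide libraries. Those of the DKO line were at 53.8, 46.5 and 45.4 CPM in control and 9.74, 12.8 and 12.04 CPM in etoposide libraries. The Null etoposide libraries lay within the range of DKO control libraries and the DKO etoposide libraries far below it. Its interaction was -1.74 (SE 0.166, limma-trend, adjusted p 2.11e-05), whereas its fall in Null cells (-0.34, adjusted p 0.0368) was lost without Null control replicate 2 or 3 or any 1 of the Null etoposide replicates (-0.38 to -0.25).

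The other subunits of the same polymerase alpha-primase complex had smaller interactions. Prim2, the regulatory primase subunit, fell from 72.6 ± 3.70 to 27.5 ± 0.436 CPM in the Null line and from 68.3 ± 5.53 to 25.1 ± 2.72 CPM in the DKO line (SD, n = 3), with an interaction of -0.05 (SE 0.126, limma-trend, adjusted p 0.897, 95% interval -0.32 to 0.22). Pola1, the catalytic polymerase subunit, fell from 143 ± 1.11 to 39.6 ± 3.03 CPM in the Null line and from 127 ± 15.2 to 29.4 ± 1.52 CPM in the DKO line (SD, n = 3), with an interaction of -0.25 (SE 0.128, adjusted p 0.297, 95% interval -0.53 to 0.03). Pola2 fell from 113 ± 4.69 to 81.05 ± 1.27 CPM and from 102 ± 3.31 to 55.9 ± 1.92 CPM (SD, n = 3; interaction -0.39, adjusted p 0.0136, lost without DKO control replicate 2 or DKO etoposide replicate 1, at -0.34 in both). In Null etoposide cells the subunits therefore ranged from 27.7% (Pola1) to 78.7% (Prim1) of their control level, and in DKO etoposide cells from 23.1% (Pola1) to 54.96% (Pola2). Pola1 and Prim2 are also the members with the longest genes, spanning 327 and 216 kilobases, against 51.2 kilobases for the next, Pole. Over the 48 members, Spearman's rho between gene span and the log2 fold change was -0.22 in Null and -0.15 in DKO cells, and 0.00 with the interaction. Over all 17984 genes tested with a span it was -0.08, -0.03 and 0.08 in the same order, all given as a description over genes that share their libraries.

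**Figure D3:**
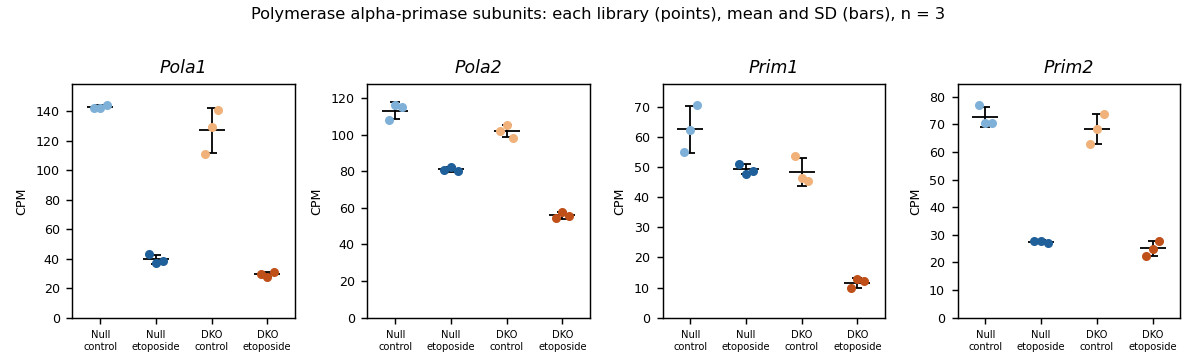
Level of the 4 polymerase alpha-primase subunits in CPM (vertical axis, from 0) in each library of the 4 groups, with points for single libraries and bars for the mean and SD of 3 libraries. Pola1 and Prim2 drop in both lines, while Prim1 drops to 9.74 to 12.8 CPM in DKO cells and stays at 47.8 to 51.1 CPM in Null cells after etoposide.

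Pole, the catalytic subunit of the leading strand polymerase, was at 136, 148 and 153 CPM in Null control and 112, 112 and 115 CPM in Null etoposide libraries. In DKO cells it was at 124, 109 and 106 CPM in control and 36.5, 34.9 and 36.3 CPM in etoposide libraries. Null etoposide and DKO control libraries overlapped, and the interaction was -1.29 (SE 0.106, limma-trend, adjusted p 5.24e-06). Pold1, its counterpart in polymerase delta and a proofreading enzyme, was at 112, 101 and 96.4 CPM in Null control and 57.02, 66.3 and 59.5 CPM in Null etoposide libraries, and at 84.3, 83.3 and 78.9 CPM in DKO control and 29.2, 29.4 and 26.4 CPM in DKO etoposide libraries. None of its groups overlapped (interaction -0.78, SE 0.116, adjusted p 8.91e-04). The accessory subunits Pold2 and Pold3 had interactions of -0.24 (adjusted p 0.524) and -0.55 (adjusted p 0.353), and Pole2 one of -0.73 (adjusted p 0.00594).

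Among the clamp, clamp loader and RPA genes, 3 of 7 were lower in Null and 7 of 7 in DKO cells, with medians of -0.20 and -1.10. Pcna, the clamp itself, fell from 208 ± 12.7 to 138 ± 6.33 CPM in the Null line and from 194 ± 18.5 to 80.7 ± 8.11 CPM in the DKO line (SD, n = 3; interaction -0.68, limma-trend, adjusted p 0.00518). Rpa2, a subunit of the protein that covers single-stranded DNA, was at 43.03, 47.6 and 56.5 CPM in Null control and 41.4, 45.1 and 41.7 CPM in Null etoposide libraries. The DKO values were 50.7, 36.2 and 35.5 CPM in control and 14.4, 14.9 and 11.3 CPM in etoposide libraries. Null libraries with and without the drug overlapped while the DKO libraries did not (interaction -1.39, SE 0.212, adjusted p 0.00106). Its partner Rpa1 had an interaction of -0.38 (adjusted p 0.0130) and kept 75.6% of its level in Null and 58.3% in DKO cells.

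The loader subunits spread as well, from 52.5% (Rfc4) to 106% (Rfc5) of the control level in Null cells and from 28.4% (Rfc4) to 73.4% (Rfc2) in DKO cells. Rfc4 was at 49.3, 47.7 and 39.9 CPM in Null control and 24.5, 24.6 and 22.8 CPM in Null etoposide libraries, and at 31.05, 40.2 and 46.5 CPM in DKO control and 10.2, 10.5 and 12.8 CPM in DKO etoposide libraries. The control libraries overlapped, those after etoposide did not, and the interaction was -0.87 (SE 0.201, limma-trend, adjusted p 0.0152), which was no longer called without DKO etoposide replicate 1 (-0.79) or Null etoposide replicate 1 (-0.84). Rfc3 was at 18.6, 25.5 and 31.6 CPM in Null control and 19.7, 23.5 and 21.7 CPM in Null etoposide libraries, and at 30.8, 21.04 and 20.9 CPM in DKO control and 11.4, 12.7 and 9.36 CPM in DKO etoposide libraries. Its control libraries overlapped between the lines, and its interaction of -0.91 did not pass (SE 0.279, adjusted p 0.0671). Up to 26.3% of the counts of Rfc4 could come from Eif4a2, 29.8% of those of Rfc2 from Lat2 and 5.32% of those of Rfc5 from Wsb2, each on the opposite strand.

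Of the 4 genes of fragment joining and the fork, 2 were lower in Null and 4 in DKO cells. Timeless, a subunit of the complex that steadies the fork, was at 56.3, 60.7 and 69.7 CPM in Null control and 37.2, 39.9 and 36.4 CPM in Null etoposide libraries. In DKO cells it was at 56.9, 44.02 and 43.5 CPM in control and 11.5, 14.4 and 11.1 CPM in etoposide libraries. Groups with and without the drug did not overlap in either line, and the interaction was -1.24 (SE 0.181, limma-trend, adjusted p 7.33e-04). Lig1, the ligase that seals Okazaki fragments, was at 114, 106 and 101 CPM in Null control and 46.3, 50.2 and 47.2 CPM in Null etoposide libraries, and at 83.8, 93.9 and 95.01 CPM in DKO control and 21.8, 19.8 and 22.3 CPM in DKO etoposide libraries. It was lower in both lines with no overlap of any groups (interaction -0.93, SE 0.111, adjusted p 1.41e-04).

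Fen1, the nuclease that trims the fragments before ligation, was at 63.6, 84.3 and 91.7 CPM in Null control and 66.8, 77.3 and 69.7 CPM in Null etoposide libraries. The DKO values were 80.6, 55.7 and 49.4 CPM in control and 32.3, 36.1 and 25.2 CPM in etoposide libraries. Its Null libraries overlapped across the treatment, and the interaction of -0.82 did not pass (SE 0.267, limma-trend, adjusted p 0.0824). Up to 55.6% of the counts of Fen1 could come from the overlapping gene Gm10143. Dna2, a helicase and nuclease, was called lower in DKO cells (-0.93) and not in Null cells (-0.39, adjusted p 0.0866), with an interaction of -0.54 (adjusted p 0.211).

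All 6 genes of nucleotide supply and uracil removal were lower in both lines, and they held the largest single interaction and one of the smallest. Rrm2 encodes the small subunit of ribonucleotide reductase, which is made in S phase. It was at 107, 101 and 91.4 CPM in Null control and 80.3, 82.01 and 74.4 CPM in Null etoposide libraries, and at 90.9, 104 and 91.99 CPM in DKO control and 13.4, 13.5 and 13.6 CPM in DKO etoposide libraries. The lines overlapped without the drug, and after it 79.1% of the control level was left in Null and 14.1% in DKO cells (interaction -2.48, SE 0.112, limma-trend, adjusted p 2.34e-08). Rrm1, the large subunit, kept 71.7% and 28.9%, with an interaction of -1.31 (adjusted p 1.50e-04).

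Tk1, the thymidine salvage kinase, was at 223, 207 and 159 CPM in Null control and 55.1, 55.6 and 52.4 CPM in Null etoposide libraries. In DKO cells it was at 145, 199 and 189 CPM in control and 18.5, 16.2 and 19.2 CPM in etoposide libraries. Tk1 had the deepest fall of all members in DKO cells (-3.29) and also fell deeply in Null cells (-1.84), with an interaction of -1.45 (SE 0.194, limma-trend, adjusted p 3.62e-04). Tyms, which makes thymidylate from deoxyuridylate, was at 64.1, 58.5 and 62.9 CPM in Null control and 40.8, 39.3 and 38.1 CPM in Null etoposide libraries, and at 47.99, 51.6 and 51.9 CPM in DKO control and 11.9, 13.05 and 13.6 CPM in DKO etoposide libraries. None of its groups overlapped (interaction -1.32, SE 0.106, adjusted p 4.13e-06). Dck, the deoxycytidine kinase, had an interaction of -0.96 (adjusted p 0.00919), and its call in Null cells (-0.42, adjusted p 0.0343) was lost without Null control replicate 1 or 2 or any 1 of the Null etoposide replicates (-0.46 to -0.35).

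Ung, the glycosylase that removes uracil from DNA, was unlike the rest of its list. It fell from 35.9 ± 8.82 to 6.91 ± 0.0431 CPM in the Null line and from 36.3 ± 7.31 to 6.60 ± 0.669 CPM in the DKO line (SD, n = 3), which left 19.3% and 18.2% of the control level. This was the deepest fall of a member in Null cells (-2.34, SE 0.177, limma-trend, adjusted p 6.59e-07), and its interaction was -0.10 (SE 0.251, adjusted p 0.901). The 95% interval of that interaction ran from -0.64 to 0.45, so the data are compatible with differences within these bounds.

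The 3 chromatin assembly genes were lower in both lines with lower interactions. Asf1b, a histone chaperone, was at 87.7, 113 and 117 CPM in Null control and 61.3, 66.1 and 65.8 CPM in Null etoposide libraries, and at 108, 95.4 and 85.6 CPM in DKO control and 18.7, 18.2 and 15.2 CPM in DKO etoposide libraries. Its interaction was -1.76 (SE 0.174, limma-trend, adjusted p 2.77e-05). Chaf1b and Chaf1a encode subunits of CAF-1, which places histones on new DNA. Chaf1b was at 55.9, 55.3 and 60.2 CPM in Null control and 27.5, 29.7 and 27.5 CPM in Null etoposide libraries, and at 57.9, 51.2 and 47.1 CPM in DKO control and 11.3, 11.1 and 9.27 CPM in DKO etoposide libraries (interaction -1.28, SE 0.139, adjusted p 6.25e-05). Chaf1a was at 90.3, 84.1 and 84.3 CPM in Null control and 57.5, 63.3 and 64.3 CPM in Null etoposide libraries, and at 73.3, 70.1 and 72.7 CPM in DKO control and 32.02, 28.9 and 29.8 CPM in DKO etoposide libraries (interaction -0.77, SE 0.0990, adjusted p 2.74e-04). In all 3 genes the DKO etoposide libraries were the lowest and did not overlap any other group, but up to 69.7% of the counts of Chaf1a could come from Ubxn6 on the opposite strand.

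Without the drug fewer members differed between the lines than after it. Between DKO and Null control cells 12 of 48 members were lower and 0 higher, beside 8.39% of all genes lower and 10.9% higher, with a median of -0.19 against -0.00 over all genes. The members called were Mcm2, Mcm3, Mcm5, Mcm6, Gins3, Mcm10, Prim1, Pold1, Pole, Rfc5, Tyms and Chaf1a, with differences from -1.15 (Mcm5) to -0.26 (Chaf1a). The calls of Prim1 and Mcm2 were the least firm, lost in 7 and 6 of the 12 fits that each left out 1 library, and those of Chaf1a and Pold1 were lost in 2 and 1 of them. Control libraries were not even among themselves: DKO control replicate 1 was the highest of its group for 25 members and the lowest for 18, and Null control replicate 1 the lowest for 29 and the highest for 14. Without DKO control replicate 1 the count rose to 21 members, with library sizes in place of TMM scaling it was 19, and with only the libraries of the 2 groups in the fit it was 5 (Mcm3, Mcm5, Mcm6, Gins3 and Rfc5). With library sizes alone the share of lower calls among all genes called in this comparison was 56.6%, against 43.4% with TMM.

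After etoposide 45 of 48 members were at a lower level in the DKO line and 0 at a higher one, beside 17.8% of all genes lower and 15.9% higher. The median difference was -1.13, and the 3 members not called were Prim2 (-0.14, adjusted p 0.262), Pold3 (-0.52, adjusted p 0.0824) and Ung (-0.07, adjusted p 0.801). Pold2 (-0.38) was no longer called without any 1 of the Null etoposide replicates or DKO etoposide replicate 1 or 3, and Gins4 (-0.44) without Null etoposide replicate 2 or DKO etoposide replicate 3. The largest differences were those of Rrm2 (-2.54), Mcm10 (-2.42), Ticrr (-2.27), Gins1 (-2.12) and Prim1 (-2.10). Comparisons that share libraries are not independent of each other, and the interaction uses all of them.

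**Figure D4:**
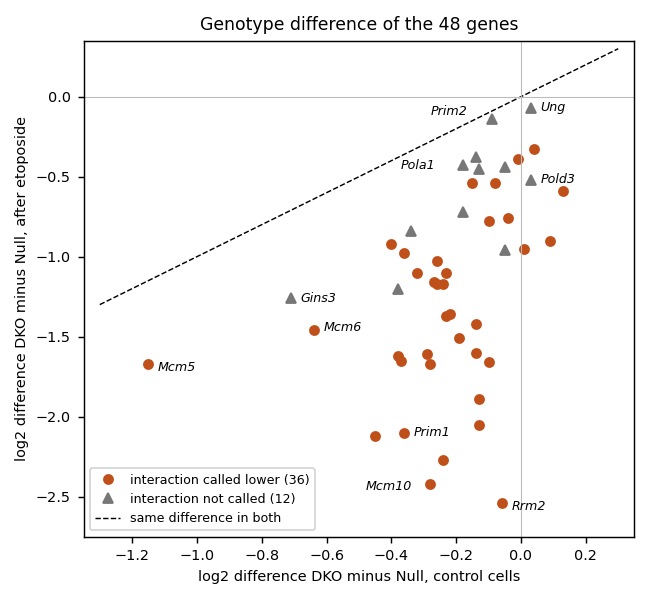
Log2 difference between DKO and Null cells for each of the 48 members, in control cells (horizontal axis) and after etoposide (vertical axis), with circles for members whose interaction was called lower (36) and triangles for the other 12. Points lie below the dashed line of equal difference, Mcm5 (-1.15) lies farthest to the left, followed by Gins3 (-0.71) and Mcm6 (-0.64), and Prim2 and Ung lie near 0 on both axes.

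Other genes of the same pathways had smaller median interactions. Of 28 further replication genes, 10 had a lower interaction and 0 a higher one, with a median of -0.31. The largest were those of Clspn (-2.13), which carries the checkpoint signal at forks, Recql4 (-1.73), a helicase of replication start, Chtf18 (-1.45), part of an alternative clamp loader, and Dbf4 (-1.09), the activator of the CDC7 kinase. Pold4, the small subunit of polymerase delta, went the other way from Pold1 to Pold3 and rose in both lines (0.62 in Null and 0.65 in DKO cells, limma-trend, adjusted p 9.47e-04 and 7.48e-04), and Pole4 rose in Null cells (0.49, adjusted p 0.00779). Up to 8.59% of the counts of Chtf18 could come from Gng13 on the opposite strand.

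Of 20 further genes of nucleotide synthesis, 4 had a lower interaction and 0 a higher one, and the median was -0.01. Those reported here are Dut (-0.78), which keeps uracil out of the nucleotide pool, Umps (-0.57) of pyrimidine synthesis and Dtymk (-0.35), the thymidylate kinase. Cad, the first enzyme of pyrimidine synthesis, rose in Null (0.92, limma-trend, adjusted p 5.39e-05) and in DKO cells (0.72, adjusted p 3.94e-04), and so did Rrm2b, the reductase subunit made outside S phase, by 0.29 (adjusted p 0.0229) and 0.39 (adjusted p 0.00413). While Rrm2 was lower in both lines, Rrm2b was thus higher. In DKO cells Tk2 (0.55, adjusted p 0.00285), the mitochondrial thymidine kinase, and Nme1 (0.51, adjusted p 0.0354), a nucleoside diphosphate kinase, were called higher as well, beside 10 genes of this list called lower. The counts of Nme1 could all come from Gm20390, which overlaps it on the same strand (a bound of 115%).

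The fall of the members can be set beside that of mitotic genes and of regulators of S phase entry. The interaction was lower for 22 of 22 mitotic genes, with a median of -3.02 against -0.85 for the members, and their summed level went from 3747 to 4024 CPM in DKO control to 415 to 432 CPM in DKO etoposide libraries, and from 3771 to 3969.9 CPM to 2278 to 2413 CPM in Null libraries. Of 14 genes of G1/S control, 6 had a lower interaction and 0 a higher one. These included the repressors E2f7 and E2f8 (both -2.16), the cyclin Ccne2 (-0.90) and Cdkn1a (-1.44), which encodes the cyclin-dependent kinase inhibitor p21 and rose in Null (3.03) and DKO cells (1.59). Cdkn1a was already higher in DKO than in Null control cells (1.15, limma-trend, adjusted p 1.55e-05), and after etoposide its difference of -0.29 did not pass (adjusted p 0.0779). Up to 7.57% of the counts of Ccne2 could come from Ints8 on the opposite strand. Whether these levels bear on those of the members was not tested.

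**Figure D5:**
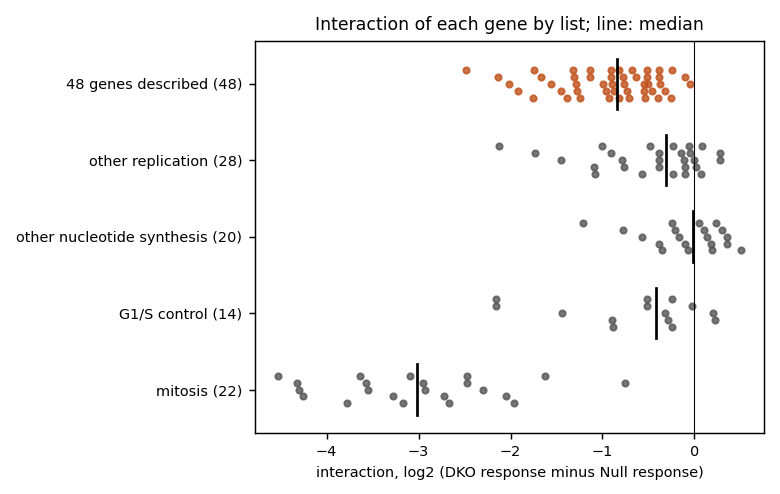
Interaction of each gene on the log2 scale (DKO response minus Null response, horizontal axis) for the 48 members and 4 other lists, with 1 point per gene and a line at the median of each list. The members lie between -2.48 and -0.05 with a median of -0.85, and the mitotic genes have a median of -3.02.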

How the data were processed

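The authors deposited a table of raw counts, 1 row per gene, for 12 libraries made from stranded, ribosomal RNA depleted total RNA sequenced as read pairs. Per the study's methods reads were trimmed where required, aligned with HISAT2 and counted on a GENCODE annotation with HTSeq, whereas the submitters' processing notes name HISAT2, featureCounts and mm10. Versions and the strand setting are not given in the sources used here. The labels name 2 RNA kits without assigning them to libraries.

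Groups were taken from the labels, and columns of other samples numbered 0. Symbols, positions and exon lengths came from GENCODE M21 (GRCm38), in which 99.4% of the identifiers were found. The filter filterByExpr of edgeR 4.0.16 kept 18066 genes with 99.96% of the counts, TMM factors were 0.939 to 1.03, and log2 CPM used a prior count of 3. All 12 libraries were fitted with a mean per group by limma 3.58.1 (limma-trend, robust, R 4.3.3), the test that the study's methods name. Fold changes are therefore on the log2 scale of CPM with that prior count, and two-sided p-values were adjusted by Benjamini-Hochberg over all genes tested in each of 5 contrasts. Squared differences between replicates of a group were 3.40 to 53.6 times those expected from counting error, as medians over genes. No replicate was therefore a repeat of another. The study's text calls the samples independent without saying whether cultures or days were separate. The p-values thus measure the spread between these libraries, which may be technical. The counting overlap of a gene was bounded from the read density of its neighbour, with counts summed over all 12 libraries. The share in a single group can therefore be larger than the one given.

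The members and lists were chosen with earlier results of these data known. Values per library are given for the 3 members of each role with the largest absolute interaction and for those with the highest and the lowest level per kilobase in Null control cells. No member was called higher. Of the other lists of pathway genes, up to 4 genes with a called interaction and those that etoposide moved against most of the list are named, except 1 gene that is not reported here, and mitotic genes are given by counts. The fits were tested on simulated data with the same dispersion for every gene, where 65% of simulated 2-fold interactions were called. This share holds for that setting and is not the power for the members, whose spread differs. Alternatives were the quasi-likelihood test of edgeR, DESeq2 1.42.0, median-of-ratios factors, library size alone, no filter, a prior count of 0.5, only the groups compared, a replicate block, a minimum absolute log2 fold change of 1 and leaving out each library.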

Additional observations from a re-analysis of the deposited data

Results flagged for a closer look

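The etoposide response differed between genotypes by the interaction test for 36 members, all with a lower response in DKO cells. Among the members given with all their libraries, the interaction was -2.48 for Rrm2, -2.14 for Mcm10, -2.02 for Ticrr, -1.92 for Cdc45, -1.76 for Asf1b, -1.74 for Prim1, -1.56 for Cdc6, -1.45 for Tk1, -1.39 for Rpa2, -1.32 for Tyms, -1.29 for Pole, -1.28 for Chaf1b and -1.24 for Timeless. It was -1.14 for Cdt1 and Mcm8, -0.997 for Gmnn, -0.93 for Lig1, -0.87 for Rfc4, -0.78 for Pold1, -0.77 for Chaf1a and -0.52 for Mcm5. Groups of 3 libraries are too small for a test of single outlying libraries.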

How the results depend on the processing

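No member was called higher in any of the 5 comparisons by limma-trend, by edgeR or by DESeq2, and 0 were higher at an unadjusted p under 0.05. Fits that left out a library are given further below. In the others, with the exceptions listed here, counts of members called lower stayed within 1.5 times the main count. With the same exceptions, medians stayed within the spread between replicates. A minimum absolute log2 fold change of 1 left 9 members lower with etoposide in Null cells, 1 lower between the lines in control cells, 27 lower after etoposide and 17 in the interaction. With library size alone the median was -1.43 for the DKO response and -0.27 between the lines in control cells, where 19 members were called. With only the groups compared 5 were called there.

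Leaving out 1 library at a time gave 34 to 41 members lower in Null cells, 48 to 48 in DKO cells, 9 to 21 between the lines in control cells, 43 to 46 after etoposide and 32 to 38 in the interaction. The medians then ran from -0.54 to -0.50, from -1.51 to -1.44, from -0.24 to -0.17, from -1.16 to -1.08 and from -0.88 to -0.77 in the same order. The count of 21 was beyond 1.5 times the main count of 12. Some medians moved by more than the spread between replicates, such as the interaction at -0.77 against -0.85. For members given with all their libraries, no interaction and no difference called in the main fit changed sign under any alternative. Differences not called were not checked for this. Fen1, Rfc3 and Mcm2 passed in the interaction with DESeq2 (-0.81, -0.88 and -0.49), and Mcm2 also with median-of-ratios factors (-0.49). Mcm8, Gins4 and Dna2, not called in Null cells in the main fit, were each called lower there in 2 fits that left out a library. Mcm8 was also called there with DESeq2 (-0.28), and Dna2 with only the groups compared (-0.39).

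With the replicate number as a block (replicate block) 36 members were lower in Null cells, 48 in DKO cells, 10 between the lines in control cells, 44 after etoposide and 34 in the interaction. Deviations of samples that share a number had correlations from -0.54 to 0.39, and those of samples with different numbers from -0.49 to 0.58. The numbers thus gave no sign of a pairing. With 3 libraries a group this cannot show whether cultures were paired.

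Depth limits little here, since the lowest level of a member in a library was 1.22 CPM, but 3 libraries a group leave small interactions unresolved, and a single line of each genotype cannot be told apart from a property of that line. The RNA kit of each library was not analysed here.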

Other observations

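The share of the control level left after etoposide differed between subunits of the same complex. The complexes hold 2 to 6 members, so the widths of their ranges are not directly comparable. In DKO cells it ran from 23.1% to 54.96% over the subunits of polymerase alpha-primase, from 14.04% to 71.1% over GINS, from 28.4% to 73.4% over the clamp loader subunits Rfc2 to Rfc5 and from 28.9% to 58.5% over Mcm2 to Mcm7. In Null cells the same ranges were 27.7% to 78.7%, 45.7% to 92.2%, 52.5% to 106% and 50.97% to 81.8%. Pole and Pole2 of polymerase epsilon kept 31.8% to 39.1% in DKO and 64.9% to 77.6% in Null cells, Rrm1 and Rrm2 kept 14.1% to 28.9% and 71.7% to 79.1%, and Rpa1 and Rpa2 kept 33.1% to 58.3% and 75.6% to 87.1%. Polymerase delta subunits Pold1 to Pold3 ran from 32.3% to 56.8% and from 47.4% to 67.1%, and the CAF-1 subunits from 20.3% to 41.95% and from 49.4% to 71.5%. In DKO cells 36 members were left with under 50% of their control level and 14 with under 25%, against 9 and 1 in Null cells, where Ung was the one under 25%.

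In Null cells the libraries after etoposide varied less among themselves than the control libraries. The median coefficient of variation of a member between the 3 libraries of a group went from 7.44% to 4.25% with etoposide in Null cells and from 9.34% to 7.67% in DKO cells. In control cells some members ran in opposite directions across the same libraries: Fen1 was at 63.6 CPM in Null control replicate 1 and 91.7 CPM in replicate 3, while Ung was at 45.1 and 27.6 CPM there.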
